A study of Mus musculus with 6 samples.

Results

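The genes described here are a network of helix-loop-helix regulators: the lineage factors Olig1 and Olig2, the E-protein genes Tcf3, Tcf4 and Tcf12, the inhibitors Id1, Id2, Id3 and Id4, and Twist1. They were chosen by name, 10 genes in all, and 9 of them are among the 12151 genes of the deposited table; Id4 is not listed there. RNA was sequenced from mouse glioma cells in culture. GL261, an established mouse glioma line, was grown with 10% fetal bovine serum, and its libraries carry the label of differentiated glioma cells. The mNS cells were grown as neurospheres without serum, in medium with B-27, basic FGF, EGF and heparin, and carry the label of glioma stem-like cells. Each group has 3 libraries, each of one cell line or culture at a different passage: 17, 33 and 34 for GL261, and 72, 77 and 85 for mNS (titles are followed here; another label puts the last GL261 library at 33). Cell source, medium and passage range differ together between the groups and cannot be told apart. Nothing in the labels says that libraries of a group were separate cultures beyond their passage, so a p-value speaks only of library-to-library spread, which may be technical.

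Basic helix-loop-helix (bHLH) proteins bind DNA as dimers at short sites called E-boxes. Tissue-restricted members such as Olig1, Olig2 and Twist1 pair with the broadly expressed E proteins, which Tcf3, Tcf4 and Tcf12 encode. Id proteins keep the dimerisation domain but lack the basic region that contacts DNA, so they hold E proteins in dimers that cannot bind. In the brain, Olig2 is known for the specification of oligodendrocyte progenitors and is a usual marker of glioma, and Id genes are classic targets of BMP signalling.

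The promoter stretches of 3 members that changed in different directions are shown to set their E-boxes and GC-rich elements side by side. They are RefSeq sequences, read from 250 bases before the RefSeq start up to the first base that lies in any GENCODE M21 exon of the gene. The Olig2 and Tcf12 stretches lie before the annotated gene; the Id2 stretch lies inside it, in an intron of a transcript that starts farther upstream. Capitals mark 2 motifs: CANNTG, the general E-box, and GGCGCC, a GC-rich element of the kind that Smad proteins bind in BMP-responsive promoters. Both motifs read the same on either strand.

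Olig2 (GRCm38.p6, chr16:91225300-91225456, plus strand): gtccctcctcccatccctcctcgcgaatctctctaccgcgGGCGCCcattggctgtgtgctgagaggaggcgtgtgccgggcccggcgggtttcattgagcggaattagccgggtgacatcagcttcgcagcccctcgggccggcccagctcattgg
Id2 (GRCm38.p6, chr12:25096254-25096342, minus strand): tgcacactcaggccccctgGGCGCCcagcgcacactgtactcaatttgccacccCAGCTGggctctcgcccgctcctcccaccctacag
Tcf12 (GRCm38.p6, chr9:72111872-72112069, minus strand): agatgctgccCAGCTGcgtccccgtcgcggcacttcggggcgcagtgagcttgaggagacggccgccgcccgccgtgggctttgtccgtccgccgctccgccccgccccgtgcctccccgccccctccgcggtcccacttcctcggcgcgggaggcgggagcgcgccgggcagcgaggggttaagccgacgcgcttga

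In the full window of 250 bases before the RefSeq start, Olig2 held no CANNTG and 2 copies of GGCGCC, which began 210 and 95 bases before the start. The Id2 window held 1 CAGCTG, an E-box form that many bHLH dimers bind, and 1 GGCGCC. The most upstream of the 3 Tcf12 windows also held 1 CAGCTG. The next Tcf12 window held 1 CAAGTG, which began 149 bases before its start, and the most downstream held neither motif. The Id3 window held neither motif and is not shown because its far end already lies in an exon of an annotated transcript. The Twist1 window held neither motif as well. The single Tcf3 window held 1 CACTTG, and that of Id4 1 GGCGCC. Among 32851 RefSeq promoter windows of the same length, 66.2% held CANNTG, 13.0% CAGCTG (a subset of the former) and 9.59% GGCGCC. These matches describe letters in a window and nothing about which factor binds. The windows of 7 members are described; Id1 and Olig1 were not matched, and that of Tcf4 was not used here.

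Expression is given in CPM, read counts divided by library size and scaled to a fixed total after TMM, a factor that corrects for differences in composition. A gene was called when limma's adjusted p, Benjamini-Hochberg over 12006 genes, was under 0.05. All 9 listed members were called, 5 higher and 4 lower in mNS than in GL261. In the same fit 64.3% of all tested genes were called, 32.2% higher and 32.1% lower; equalising the column totals instead of TMM scaling shifted this balance to 4460 higher and 3197 lower calls. For all 9 members the lowest library of the higher group lay above the highest library of the other, as it did for 69.9% of all tested genes. Being called or separated is thus the usual case in this comparison, and the sizes of the differences carry the description below. The median difference of the 9 members was 0.54 on the log2(CPM + 1) scale, against -0.0027 for all tested genes. The members ran from -5.15 (Id3) to 5.57 (Olig2), so this median, the value of Tcf4, describes no common shift.

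**Figure D1:**
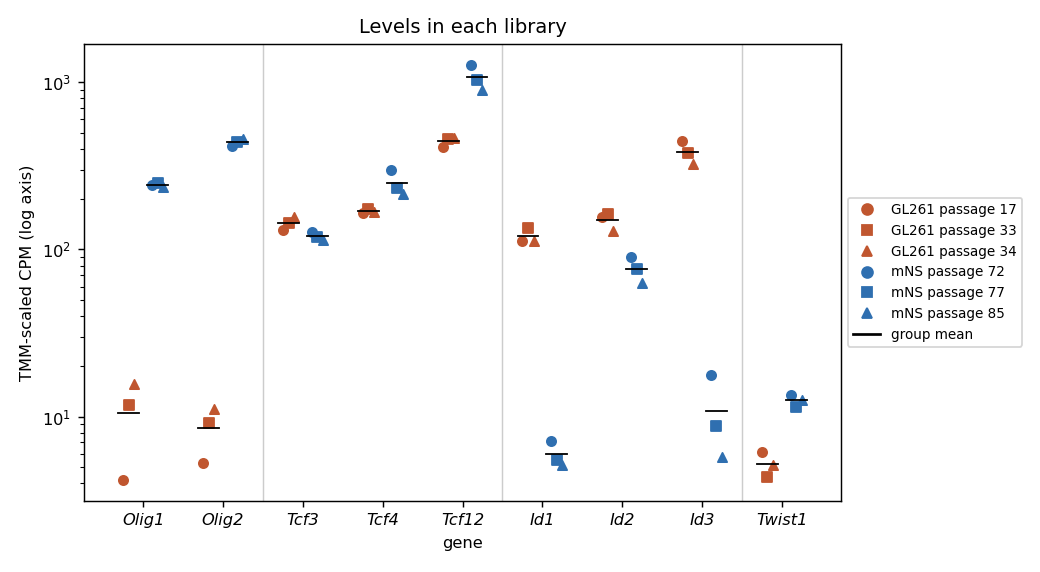
TMM-scaled CPM (log axis) of the 9 listed genes in each library; each point is 1 library, its shape gives the passage, its colour the group, and the line is the mean of 3 libraries. Olig1 and Olig2 lie far higher in mNS, Id1 and Id3 far lower, and the 3 E-protein genes differ by less than 3-fold.

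Olig2, the bHLH factor of oligodendrocyte progenitors (chromosome 16, 91225457 to 91228677 in GRCm38, plus strand), was near the bottom of the members in GL261 and among the highest in mNS. It measured 5.29, 9.19 and 11.1 CPM in GL261 at passages 17, 33 and 34, and 414, 437 and 459 CPM in mNS at passages 72, 77 and 85. Every mNS library lay far above every GL261 library, and the groups did not overlap. The group means of 8.54 ± 2.97 and 437 ± 22.8 CPM (SD, n = 3 each) are 51.1-fold apart. On the log2(CPM + 1) scale Olig2 rose by 5.57 ± 0.21 (standard error, here and below; adjusted p from limma 1.13e-07).

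Olig1, its neighbour and close relative in the oligodendrocyte lineage, starts 44.3 kb downstream on the same strand (chromosome 16, 91269772 to 91271933). It measured 4.17, 11.7 and 15.7 CPM in GL261 and 242, 251 and 236 CPM in mNS. As for Olig2, the library of GL261 at passage 17 was the lowest; the highest GL261 value of Olig1 was 3.76 times the lowest, while the mNS libraries stood within 1.06 times of each other. Olig1 rose 23.0-fold between group means (log2 difference 4.56 ± 0.36, adjusted p = 8.82e-06), and the fold was 17.7 without the GL261 library of passage 17 and 30.5 without that of passage 34. The annotation places a noncoding gene, Gm15966, on the opposite strand over an exon of Olig1. The library kit keeps strand, but no source used here gives the strand setting of the counting, so reads of the pair may not be separated.

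The Id genes went the other way. Id3 (chromosome 4, 136143497 to 136145755) was the most abundant Id gene in GL261, at 442, 377 and 325 CPM, and measured 17.7, 8.74 and 5.74 CPM in mNS. It had the widest relative spread of the members within mNS, 3.09 times from the lowest to the highest library, yet its passage 72 library, the highest, was still far below every GL261 library. Id3 fell 35.5-fold (log2 difference -5.15 ± 0.32, adjusted p = 2.00e-06), and with each library left out in turn the fold ran from 28.8 (without mNS passage 85) to 52.7 (without mNS passage 72).

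Id1 (chromosome 2, 152736251 to 152737410), a standard readout of BMP signalling, measured 113, 134 and 112 CPM in GL261. In mNS it was 7.17, 5.49 and 5.17 CPM. Both groups were tight, and Id1 fell 20.1-fold between means (log2 difference -4.13 ± 0.13, adjusted p = 4.81e-08).

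Id2 (chromosome 12, 25093799 to 25097140), whose product also binds the retinoblastoma protein, fell much less. Its values were 156, 164 and 129 CPM in GL261 and 90.4, 75.9 and 62.9 CPM in mNS. The lowest GL261 library was 129 CPM and the highest mNS library 90.4 CPM, a narrow gap beside those of Id1 and Id3. The fold between means was 1.96 (log2 difference -0.97 ± 0.14, adjusted p = 0.000309). The 95% interval of the Id2 difference, -1.28 to -0.66, lies apart from those of Id1 (-4.42 to -3.83) and Id3 (-5.87 to -4.42); the difference between the genes itself was not tested.

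The E-protein genes, which encode the shared dimer partners, did not change in one direction: Tcf12 and Tcf4 rose and Tcf3 fell. Tcf12, which encodes the E protein HEB (chromosome 9, 71842688 to 72111871), measured 409, 455 and 467 CPM in GL261 and 1272, 1031 and 903 CPM in mNS. It rose 2.41-fold (log2 difference 1.25 ± 0.12, adjusted p = 2.51e-05). Tcf4, which encodes the E protein E2-2 and is distinct from the Wnt effector Tcf7l2, listed separately, measured 165, 174 and 168 CPM in GL261 and 297, 232 and 215 CPM in mNS. Its rise was 1.47-fold (log2 difference 0.54 ± 0.11, adjusted p = 0.00252). For both genes the mNS library of passage 72 was the highest.

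Tcf3, which encodes the E proteins E12 and E47 (chromosome 10, 80409514 to 80433647), stood at 130, 144 and 157 CPM in GL261 and at 127, 119 and 113 CPM in mNS. The groups almost touched. Its fall of 1.20-fold was called (log2 difference -0.26 ± 0.08, adjusted p = 0.0233), but the call was lost in 6 of 17 alternatives. These were the common column sum (adjusted p = 0.110), quantile normalisation (0.0677) and the omission of GL261 replicate 2 (0.0649) or 3 (0.0832) or of mNS replicate 2 (0.0719) or 3 (0.0773); over all 17 the adjusted p ran from 0.00460 to 0.110. The other 8 members were called with the same direction in all 17.

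Twist1, a factor of mesenchymal and neural crest cells (chromosome 12, 33957671 to 33959829), was low in all libraries: 6.11, 4.34 and 5.13 CPM in GL261 and 13.5, 11.4 and 12.6 CPM in mNS. It rose 2.41-fold (log2 difference 1.13 ± 0.14, adjusted p = 0.000135). The lowest value rests on 58 reads.

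**Figure D2:**
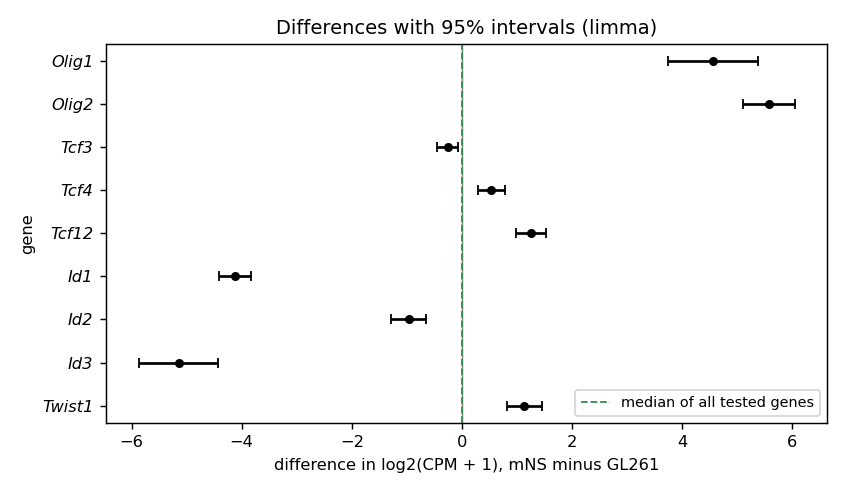
Difference in log2(CPM + 1), mNS minus GL261, for the 9 listed genes, with 95% intervals from limma (3 libraries in each group); the dashed line is the median of all tested genes. Olig1 and Olig2 lie beyond 3.74, Id1 and Id3 below -3.83, and the other 5 between -1.28 and 1.52.

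Levels of different genes can be compared only per length. CPM was therefore divided by the length of the merged exons in GENCODE M21, in kilobases (kb). On that scale the order of the members in GL261 began with Id3 (213 ± 32.8 CPM per kb, SD, n = 3), Id1 (103 ± 10.7) and Id2 (61.4 ± 7.54), whose library values did not overlap with one another. Tcf3 (35.5 ± 3.36) and Tcf12 (28.6 ± 1.97) followed, also without overlap, then Tcf4 at 6.17 ± 0.165. Olig1 (4.87 ± 2.70) overlapped with Tcf4, and Olig1, Olig2 (3.37 ± 1.17) and Twist1 (3.19 ± 0.547) overlapped with one another. With the longest transcript of each gene as its length, Tcf12 stood above Tcf3 in GL261. The gene models used in the counting may differ from GENCODE M21, which bears on all levels per kb given here.

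In mNS the order was led by Olig2 (173 ± 9.01 CPM per kb) and Olig1 (112 ± 3.51), both separate from the rest in every library. Tcf12 came next (68.8 ± 12.1). Id2 (31.3 ± 5.64) and Tcf3 (29.6 ± 1.70) overlapped. Tcf4 (9.05 ± 1.57), Twist1 (7.69 ± 0.637), Id3 (6.00 ± 3.49) and Id1 (5.12 ± 0.928) made up the lowest levels, and their neighbours in that order overlapped. With the longest transcript Tcf12 passed Olig1, Tcf3 passed Id2 and Id3 passed Twist1 in mNS. Among 11920 genes with a length, Olig2 moved from percentile 29.7 of levels per kb in GL261 to percentile 98.8 in mNS, and Id3 from 98.9 to 41.9.

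Summed over each family, the balance between inhibitors and partners turned over. The 3 Id genes together stood at 408, 393 and 331 CPM per kb in GL261 and at 53.2, 40.7 and 33.5 in mNS. The 3 E-protein genes together stood at 64.5, 71.3 and 75.1 CPM per kb in GL261 and at 124, 104 and 94.0 in mNS. The ratio of summed Id to summed E-protein level was thus 6.33, 5.52 and 4.41 in the GL261 libraries and 0.428, 0.390 and 0.356 in the mNS libraries. Every GL261 library had more Id than E-protein RNA per length, and every mNS library less. Both sums come from the same library, so the ratio does not depend on how libraries were scaled. It does depend on the exon length assumed, because Tcf4 and Tcf12 have many annotated transcripts: with the longest transcript of each gene the mean ratio was 3.47 in GL261 and 0.217 in mNS. These are RNA levels, and the amounts and dimers of the proteins were not measured.

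The pool of Id RNA also changed in make-up. Id3 made up 60.5%, 53.5% and 54.8% of the summed Id level per kb in GL261, and 18.6%, 12.0% and 9.57% in mNS. Id2 went from 15.7%, 17.1% and 15.98% to 69.8%, 76.4% and 77.1%. So the Id RNA left in the neurospheres was mostly Id2, the member that fell least. Within the E-protein pool Tcf12 went from a mean of 40.7% to 63.8% and Tcf3 from 50.5% to 27.8%, while Tcf4 held 8.81% and 8.40%. With the longest transcript Tcf12 was the largest share in both groups (50.7% and 70.8%), Tcf3 went from 35.0% to 17.1%, and Tcf4 held 14.2% and 12.1%. The Olig pair summed to 4.02, 9.06 and 11.6 CPM per kb in GL261 and to 275, 289 and 291 in mNS. Relative to the E-protein sum this was 0.115 ± 0.0476 in GL261 and 2.69 ± 0.441 in mNS, or 0.0583 ± 0.0245 and 1.21 ± 0.212 with the longest transcript.

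**Figure D3:**
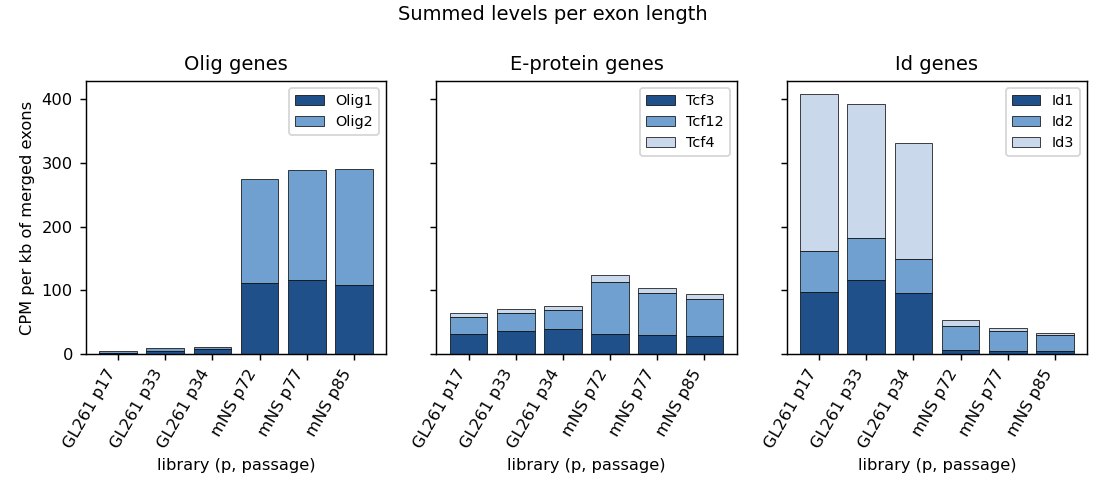
Summed levels of the Olig, E-protein and Id genes per library, in CPM per kb of merged exons (stacked bars, 1 shade per gene within a panel, axis from 0). Id genes form the tallest bars in the GL261 libraries (331 to 408) and the shortest in the mNS libraries (33.5 to 53.2), where the Olig genes reach 275 to 291.

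Around the members, 138 other genes had been put into 11 lists by role. Of these, 72 were in the table and 69 were tested, of which 23 rose, 30 fell and 16 were not called. Among all tested genes 32.2% rose and 32.1% fell, and each list count below is to be read beside these shares. No list was tested as a set. The other tissue-restricted bHLH factors were mostly not listed, including Olig3. All 3 that were tested fell. For Atoh8 769 reads were counted over the GL261 libraries and 2 over those of mNS. That is 381-fold lower in mNS; counting error alone allows 105 to 3155 (exact 95% interval). Bhlhe22, a relative of the Olig genes, fell from 45.7 ± 10.0 to 5.50 ± 1.01 CPM (8.30-fold), and Tal1, a blood lineage factor, from 13.4 ± 0.725 to 7.85 ± 1.05 CPM. Olig1, Olig2 and Twist1 were the risers among the 6 listed genes of this class.

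Of 5 tested Hes, Hey and Bhlhe genes, which encode bHLH repressors, 2 rose and 1 fell. The Notch target Hes1 fell from 21.0 ± 3.79 to 1.02 ± 0.162 CPM. Hes6, which antagonises Hes1, rose from 7.57 ± 1.12 to 23.9 ± 1.96 CPM, and Bhlhe40, a repressor linked to the clock and to stress, from 7.07 ± 1.43 to 21.2 ± 1.13 CPM. Cofactors of bHLH dimers moved little: of 5 tested, 2 rose and 1 fell. Ldb1, a bridging protein, rose 1.31-fold and the acetyltransferase gene Ep300 1.398-fold; the LIM-only gene Lmo4 fell 1.75-fold.

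Because Id genes respond to BMP, the parts of that pathway are given by role. BMP signalling itself was not measured, and a link between these genes and the fall of the Id genes was not tested. Of the ligand and antagonist genes only Chrd, Twsg1 and Bambi were listed; the ligand genes Bmp2, Bmp4, Bmp5, Bmp6 and Bmp7 were not. Bambi, a decoy receptor and itself a BMP target, fell from 13.9 ± 1.58 to 2.66 ± 0.320 CPM (adjusted p = 3.12e-06). Chrd and Twsg1, which encode extracellular BMP binders, rose 2.05-fold and 1.49-fold. Of 7 receptor genes 5 fell and 1 rose, with a list median of -0.54. Acvrl1 fell from 21.0 ± 1.48 to 3.16 ± 1.57 CPM and the coreceptor gene Eng from 1.82 ± 0.422 to 0.348 ± 0.119 CPM; Acvr2b rose 2.17-fold. The other receptor genes that fell were Bmpr2 (1.48-fold), Acvr2a (1.67-fold) and Acvr1 (1.31-fold). Bmpr1a was not called, at 194 ± 6.71 and 187 ± 5.80 CPM.

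Of 9 genes for Smads and their inhibitors 4 fell and 2 rose. The risers were those of the signal carriers Smad1 (1.99-fold) and Smad5 (1.28-fold), both picked out once their values were known. The signal carrier gene Smad9 was not called (3.36 ± 0.862 and 3.802 ± 0.613 CPM). The genes that fell encode inhibitors: Smad7, which is induced by the pathway it blocks, fell from 20.3 ± 1.39 to 0.975 ± 0.361 CPM, the ubiquitin ligase gene Smurf1 fell 2.21-fold and the repressor genes Skil and Ski 2.15-fold and 1.93-fold, the last also named after its value was seen. Smurf2, a relative of Smurf1 and also an inhibitor gene, was not called (94.2 ± 5.69 and 96.5 ± 2.40 CPM). Smad4, the common partner, was not called either (114 ± 10.4 and 102 ± 12.9 CPM).

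Genes acting downstream of Id proteins, or on them, changed by smaller factors than Olig1, Olig2, Id1 and Id3. Of 7 genes for Id turnover and the retinoblastoma family 5 fell; Rb1 (23.9 ± 2.40 and 26.7 ± 3.98 CPM) and Rbl2 (54.6 ± 4.26 and 62.2 ± 2.85 CPM) were not called. Rbl1, a retinoblastoma relative, fell 1.80-fold, and Cdc20 and Fzr1, the activators of the ubiquitin ligase that degrades Id proteins, 1.75-fold and 1.44-fold. The other genes of this list that fell were Usp1 (1.15-fold) and Wdr48 (1.27-fold). Of 7 CDK inhibitor genes, a class that E proteins can induce, 3 rose and 1 fell. Cdkn2b rose 2.49-fold, Cdkn1b 1.48-fold, and Cdkn2c fell 2.88-fold. Cdkn1a, the inhibitor best known as an E-protein target, was not called, at 50.5 ± 9.43 and 50.9 ± 3.19 CPM (log2 difference 0.03, adjusted p = 0.869).

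Genes of the oligodendrocyte lineage, where Olig2 acts, did not follow it together. Of 15 tested progenitor genes and partners 8 rose and 5 fell, with a list median of 0.21. Sox8 rose from 0.444 ± 0.0811 to 15.1 ± 5.10 CPM and Myrf, the master factor of myelin genes, from 1.4996 ± 0.711 to 16.7 ± 2.10 CPM. Sox5, a brake on maturation, fell from 6.82 ± 0.474 to 0.644 ± 0.1004 CPM. More abundant genes of the list, named here as checks, also moved both ways. Pdgfra rose from 111 ± 9.85 to 267 ± 64.4 CPM. Cspg4 fell from 224 ± 34.1 to 85.6 ± 11.5 CPM and Sox10 from 392 ± 12.7 to 208 ± 18.5 CPM. Sox6 was not called, at 434 ± 34.6 and 418 ± 24.0 CPM. Of 5 tested myelin genes 3 rose and 2 fell. For Mog 647 reads were counted in mNS, all libraries together, against 3 in GL261. It was 217-fold higher in mNS, and counting error alone allows 74.1 to 1057 (exact 95% interval). Leaving out GL261 replicate 1 gave 443-fold, and leaving out GL261 replicate 2 gave 145-fold. Mbp fell from 763 ± 33.3 to 33.7 ± 10.3 CPM.

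Twist1 is often read together with other mesenchymal transition genes, and here it rose while those of them that were called fell. Of 4 tested genes of that list 3 fell; the other, Zeb1, measured 64.3 ± 18.0 and 78.7 ± 5.26 CPM (adjusted p = 0.159). Cdh2 fell from 868 ± 109 to 66.7 ± 26.8 CPM, Prrx1 from 198 ± 26.02 to 51.8 ± 4.48 CPM, and Zeb2, which is also in the progenitor list, 1.42-fold. Twist2, Snai1 and Snai2 were not listed.

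**Figure D4:**
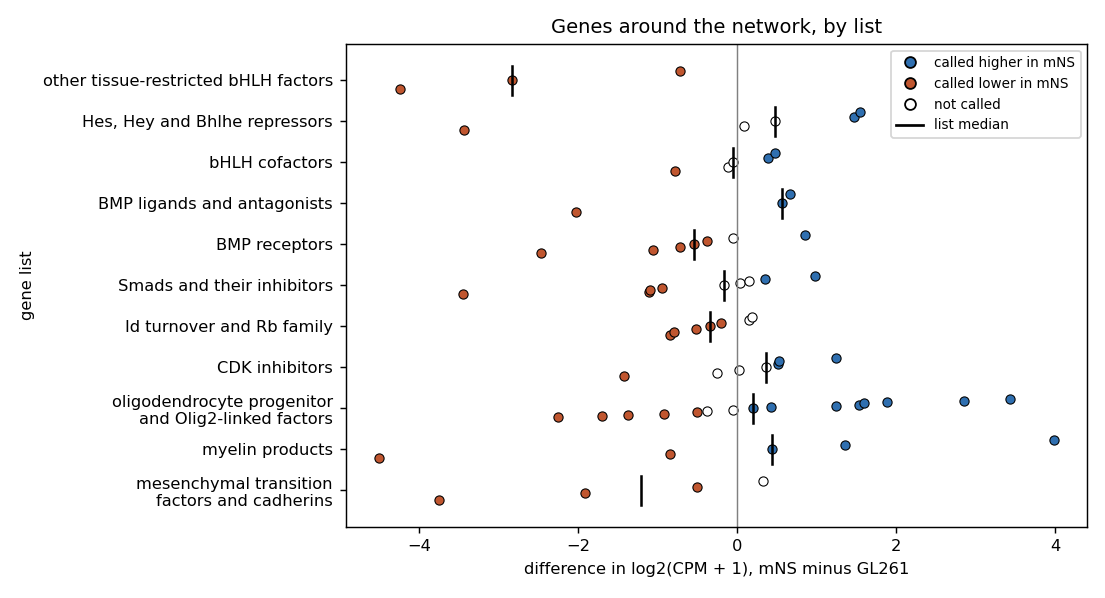
Difference in log2(CPM + 1), mNS minus GL261, of each tested gene in the 11 lists around the network (1 point per gene, filled where called, line at the list median). Calls in both directions appear in 8 of the 11 lists; the bHLH relatives, the Id turnover genes and the mesenchymal genes have called genes on the lower side only.

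The libraries held between 12534422 and 14225175 reads in listed genes, and 1 read was worth 0.0708 to 0.0773 CPM; members had 56 to 16851 reads in a library, so counting error is small beside the larger differences. In bulk RNA fewer cells of a type and less RNA per cell cannot be told apart. Markers of other cell types moved with the groups. Of 6 fibroblast and pericyte markers 2 were listed, Col1a1 and Pdgfrb, with a summed level of 119 to 136 CPM in GL261 and 4.64 to 8.61 CPM in mNS. Nearly all of that sum was Col1a1 (127 ± 9.75 and 6.18 ± 2.03 CPM), and Pdgfrb was low in both groups (2.41 ± 0.748 and 0.123 ± 0.0401 CPM). Of 8 microglia markers only Csf1r was listed, at 1.16 to 2.31 CPM in GL261 and at most 0.0755 CPM in mNS, and none of 5 endothelial markers was. Of 7 astrocyte markers 5 were listed, with a summed level of 240.5 to 325 CPM in GL261 and 307 to 361 CPM in mNS, but they moved both ways. Aldoc and Slc1a3 rose 6.73-fold and 3.07-fold and S100b fell 4.31-fold; Gfap fell from 1.49 to 5.06 CPM in GL261 to at most 0.226 CPM in mNS, and Aldh1l1 was at 0 in every mNS library. Of 6 neuronal markers 3 were listed, with a summed level of 372 to 383 CPM in GL261 and 240 to 251 CPM in mNS. Map2 (144 ± 17.0 to 229 ± 3.58 CPM) and Syt1 (0.767 ± 0.291 to 6.38 ± 1.75 CPM) rose, and Tubb3 fell from 234 ± 11.7 to 8.85 ± 4.43 CPM. Of 8 neural stem markers 6 were listed, of which 3 rose, 2 fell and Sox2 was not called, at 181 ± 41.0 and 184 ± 15.1 CPM. Fabp7 (3.24 ± 2.06 to 89.8 ± 5.88 CPM), Msi1 (4.46 ± 0.867 to 8.82 ± 1.29 CPM) and Pax6 (27.4 ± 2.03 to 37.2 ± 0.419 CPM) rose. Nes fell from 1518 ± 175 to 955 ± 236 CPM and Vim from 7257 ± 617 to 3659 ± 117 CPM, so the stem markers moved both ways. The part of these in the members' differences was not tested.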

How the data were processed

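The deposited table holds 1 value per gene and library in CPM, a normalised signal that the authors scaled with TMM factors in edgeR, as the series' design text and the file name give it. The submitters' processing notes list, with no roles, edgeR 3.4.2, the build mm10, HTSeq 0.5.3p9 and version 2 of TopHat2. The libraries kept strand and lacked ribosomal RNA (Ribo-Zero Gold), and sequencing was single-read, as the design text states. How low genes were filtered is not stated there. Dividing a column by its smallest step turned 100% of its values into whole reads (within 0.001), which gave the depth (12534422 to 14225175 per library).

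The main test was limma 3.58.1 (R 4.3.3) with a mean-variance trend (two-sided) on log2(CPM + 1). It took in the 12006 genes averaging 1 CPM or more (145 averaged less), and p-values were adjusted over them by Benjamini-Hochberg. N-fold values are ratios of group means of CPM, except for Atoh8 and the full Mog comparison, which are ratios of summed reads corrected for depth. Values are means ± SD over 3 libraries. Count tests on recovered reads were edgeR 4.0.16 (quasi-likelihood, which called 7783 genes, and exact) and DESeq2 1.42.0. All tests were tried on simulated data in which a far smaller share of genes differed than was called here. That trial therefore does not show how the tests perform on data like these. Exon lengths and positions come from GENCODE M21 (GRCm38), which matched 12065 of 12151 symbols; promoters come from RefSeq on GRCm38.p6. Members and lists were chosen with earlier results of these data known. Besides the members, up to 3 called genes per list with the largest differences are named, and other names are given to complete a list or as checks. A gene that this rule names is not reported here. Of 178 symbols in the lists and marker sets, 89 were listed. Samples were grouped by title.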

Additional observations from a re-analysis of the deposited data

How the results depend on the processing

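Each member was fitted under 17 alternatives: pseudocounts of 0.5 and 0.1, no filter or a mean of 5 CPM, a common column sum, centring on the median gene, quantile normalisation, limma without trend, 3 count tests, and each library left out in turn. No member changed direction, and Tcf3 alone lost its call, with log2 differences of -0.33 to -0.17. An adjusted p under 0.01 left 8 of 9 members called. The number of members called was 8 or 9 throughout, and that of all genes lay within 1.5 times of 7714. Using the longest transcript in place of merged exons moved the mean ratio of summed Id to E-protein level from 5.42 to 3.47 in GL261 and from 0.392 to 0.217 in mNS. The side of 1 on which each group lay was the same with both lengths. With 3 libraries a group, and cell source, medium and passage changing together, no difference can be assigned to any of them.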

Other observations

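Some genes outside the lists had profiles close to those of the members with the largest differences. Closeness is the root mean square distance of log2(CPM + 1) over the 6 libraries, after each gene was centred on its own mean. It was taken among 9430 genes with at least 10 CPM in their higher group, leaving out numbered gene models and clone or accession names. For Olig2 the closest were Adamts9, which encodes a matrix protease (distance 0.21), Vav3, a guanine nucleotide exchange factor gene (0.24), Cd93 (0.25), the growth cone gene Gap43 (0.26) and Pid1 (0.28). Adamts9 averaged 9.87 CPM in GL261 and 379 CPM in mNS.

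For Id1 the closest were Angptl4 (0.13), which encodes a secreted lipase inhibitor, Arhgef26 (0.14), the dynamin gene Dnm3 (0.14), the interferon-induced gene Ifit1 (0.16) and Tnfrsf11b (0.17), a decoy receptor gene. For Id3 they were Epb4.1l4b (0.21), the tubulin gene Tubb3 (0.28), the cadherin gene Cdh6 (0.28), the protocadherin gene Pcdh1 (0.31) and the collagen gene Col2a1 (0.32), which averaged 1249 CPM in GL261 and 33.3 CPM in mNS. With 2 separate groups of 3 libraries, such a distance mostly reflects the size of the difference between the groups.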
